A study of Mus musculus with 16 samples.

Results

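Single-strand breaks (SSBs) are nicks in 1 strand of the DNA double helix. They arise from damage and from base excision repair, in which a glycosylase removes a base, the backbone is cut, and a polymerase and a ligase refill and seal the gap. Poly(ADP-ribose) polymerases bind such nicks and recruit repair proteins, and in embryonic stem cells the pathway also serves DNA demethylation, where the thymine DNA glycosylase TDG excises oxidised forms of 5-methylcytosine. Where a genome-wide map of nicks places them is therefore of interest both at gene starts, where CpG islands lie, and away from them.

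The regions described here carried an SSB peak in wild-type cells under DMSO and in no other condition of the study. They were chosen by the peak lists themselves: peaks of chromosomes 1 to 19 from the 4 conditions were merged where they shared at least 1 bp, and a merged region was kept if it held a peak of the wild-type DMSO list and of none of the 3 other lists. This gave 10827 WT DMSO only regions among 60228 merged regions in all, or 38.8% of the 27920 regions with a WT DMSO peak. Each consisted of 1 peak, and together they covered 6.15 Mb. The remaining 17093 WT DMSO regions, called shared below, also held a peak of 1 other list (5907 regions), of 2 other lists (5548) or of all 4 lists (5638).

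Mouse embryonic stem cells (strain C57BL/6JRj) were grown without serum in 2i medium and LIF, a culture that keeps them in the naive pluripotent state. They were wild type (WT) or had a Tdg minigene excised with 4-OHT (KO), and received DMSO or, for 24 h, the PARP inhibitor talazoparib at 5 nM. The growth protocol, worded alike for all libraries, names 5 uM 4-OHT for 2 h before each experiment, and how long DMSO was given and whether each line is a single clone are not given in the sources used here. In SSB-seq, E. coli DNA polymerase I adds digoxigenin-labelled nucleotides at nicks for 1 min, and labelled fragments are pulled down and sequenced beside input DNA. Each condition had 3 pulldown (IP) libraries and 1 input library, 16 in all, but 1 peak list pooled over its libraries. No value therefore has a spread between replicates, intervals below cover counting error only, and no comparison is a test between conditions. A peak present in more cells and a peak with more nicks per cell cannot be told apart. Per the labels, the libraries of each genotype ran on 2 flow cells of their own, so genotype and flow cell cannot be told apart, and the peak lists hold nothing that checks the genotype labels.

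The lists differed in depth. Pooled IP totals, estimated from steps in the low normalised tag counts, were 87.0 M tags for WT with DMSO and 83.8 M with talazoparib, and 69.2 M for KO with DMSO and 66.4 M with talazoparib. Input totals were 38.1, 24.5, 24.8 and 28.3 M. WT DMSO thus had the deepest IP and the deepest input. The share of regions found in 1 list only was 38.8% for WT DMSO (Wilson 95% interval 38.2 to 39.4), 28.4% for WT talazoparib, 43.0% for KO DMSO and 30.6% for KO talazoparib. The part of depth in these shares was not tested.

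Sequences of the strongest WT DMSO only regions are shown first, because they differ in kind. Each is the central 200 bases of the region on the plus strand of mm10 (GRCm38, RefSeq), 1-based, with CpG dinucleotides in capitals. The first 2 are among the strongest regions that touch no annotated UTR: an intergenic region whose nearest protein-coding start is that of Sfi1 (chr11:3104760-3104959) and an intron of Macrod1 (chr19:7171595-7171794). The last is the promoter of Tacc1 (chr8:25240902-25241101), the only one of the 10 strongest protein-coding promoter regions whose window touches no annotated UTR.
Sfi1: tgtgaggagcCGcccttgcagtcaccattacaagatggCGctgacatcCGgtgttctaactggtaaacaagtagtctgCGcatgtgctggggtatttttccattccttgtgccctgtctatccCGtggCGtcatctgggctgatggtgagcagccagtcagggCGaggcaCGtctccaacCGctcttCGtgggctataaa
Macrod1: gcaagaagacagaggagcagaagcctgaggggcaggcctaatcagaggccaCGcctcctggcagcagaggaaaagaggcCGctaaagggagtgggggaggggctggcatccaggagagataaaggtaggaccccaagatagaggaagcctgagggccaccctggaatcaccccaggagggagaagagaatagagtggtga
Tacc1: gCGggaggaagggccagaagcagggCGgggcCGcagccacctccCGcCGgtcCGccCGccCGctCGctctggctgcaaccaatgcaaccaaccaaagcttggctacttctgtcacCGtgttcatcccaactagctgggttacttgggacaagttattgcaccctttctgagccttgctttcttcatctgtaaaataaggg
The 3 windows differ in CpG content. GC content was 55.0% in the Sfi1 window, 59.0% in Macrod1 and 58.5% in Tacc1. The Sfi1 and Tacc1 windows held 10 CpG each and the Macrod1 window 2.

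Most WT DMSO only regions were short, weak peaks. These peak values entered the choice of regions and are given as a description. The median normalised tag count, IP tags in the peak per 10 M IP tags, was 3.39 in WT DMSO only regions (quartiles 3.10 and 4.2) and 7.47 in shared regions (quartiles 4.60 and 12.9). In tags, the medians were 29.5 and 65.0. The peak caller's shortest usual width, 500 bp, was the length of 72.4% of WT DMSO only and 27.3% of shared regions, whose medians were 500 and 777 bp. IP density was 1.71 times the genome mean in WT DMSO only regions and 2.44 times in shared ones. Short, weak peaks were not particular to this set. Regions found only in WT talazoparib, KO DMSO or KO talazoparib also had a median length of 500 bp. Their median IP tags were 25.5, 32.0 and 29.5.

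The authors' fold over input did not separate the classes, with medians of 5.11 and 5.16, and 47.4% and 44.8% of regions lay between the lowest listed fold of 4.00 and a fold of 5. What differed was the number of input tags behind the fold. The median was 2.5 input tags in WT DMSO only regions and 5.50 in shared ones, and 55.3% against 15.4% had fewer than 3. Input density was 0.347 times its genome mean in WT DMSO only regions and 0.483 times in shared ones. Under that mean lay 99.9% of WT DMSO only and 94.9% of shared regions. Low input was not particular to this set. The median input density was 0.167 in WT talazoparib only, 0.320 in KO DMSO only and 0.374 in KO talazoparib only regions. Set against the 5th percentiles of the other lists, the WT DMSO only regions were low for the KO lists but not for WT talazoparib. The lowest normalised tag count listed was 2.41 for WT DMSO, 2.51 for WT talazoparib, 2.82 for KO DMSO and 2.79 for KO talazoparib. Below the 5th percentile of the KO DMSO list, 3.47 tags, lay 53.8% of WT DMSO only regions, and below that of the KO talazoparib list, 3.54 tags, lay 56.1%. In WT talazoparib the 5th percentile was 2.62, and 0.0554% lay below it. Below the median of the list lay 87.7% for WT talazoparib, 95.9% for KO DMSO and 97.0% for KO talazoparib. The part of IP depth in these values was not tested.

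Ranking all WT DMSO regions by normalised tag count showed how far strength and sharing went together. Of the weakest decile, 2.41 to 3.05 tags, 80.8% were found in no other list (79.3 to 82.2). The share was 45.7% in the fifth decile, 17.0% in the seventh and 1.65% in the ninth. In the strongest decile, above 16.4 tags, 8 of 2792 regions (0.287%, 0.145 to 0.564) were found only in WT DMSO.

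**Figure D1:**
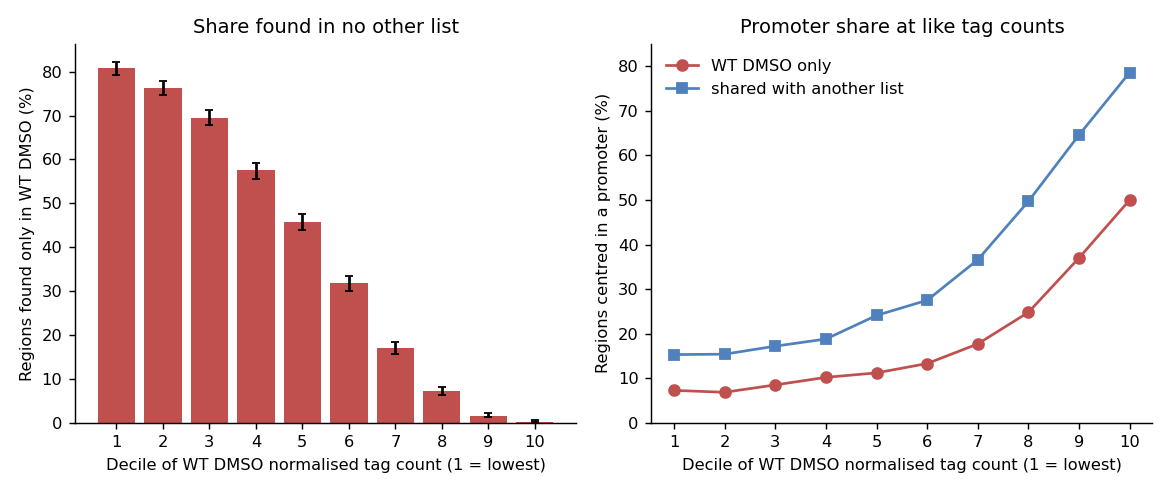
Left, share of WT DMSO regions found in no other list (%, Wilson 95% intervals) by decile of normalised tag count, from 80.8% in the lowest to 0.287% in the highest. Right, share of regions centred in a promoter (%) in the same deciles, for WT DMSO only and shared regions; the WT DMSO only line lies below the other in all 10 deciles.

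Away from gene starts was where most WT DMSO only regions lay. Promoters (from 1 kb before to 100 bp after any annotated transcription start) held 9.73% of WT DMSO only and 44.1% of shared regions, a difference of -34.4 percentage points (Newcombe 95% interval -35.3 to -33.4) that had the same sign on 19 of 19 chromosomes. Introns held 43.6% against 24.4% (19.2 points, 18 to 20.3) and intergenic DNA 32.6% against 19.4% (13.2 points, 12.2 to 14.3), each higher on 19 of 19 chromosomes. Transcription ends held 7.25% against 4.77% and 3' UTRs 1.59% against 0.831%, higher on 19 and 17 chromosomes. The 5' UTR share was lower, at 0.443% against 1.72%. Exon shares were 4.81% and 4.8%, with an interval of the difference of -0.501 to 0.531 points.

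The comparison was repeated with shared regions weighted to the same deciles of peak length and tag count. The promoter difference then shrank to -9.56 points (-10.8 to -8.37) and the intergenic difference to 2.26 points (0.659 to 3.86). Within single deciles of tag count the promoter share was lower in WT DMSO only regions in all 10, by -8.03 points in the first (7.27% against 15.3%), -14.2 in the sixth and -27.6 in the ninth. The tenth decile, with 8 such regions, gave 50.0% against 78.6%.

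The median distance from a region's centre to the nearest transcription start was 6179 bp in WT DMSO only regions and 514 bp in shared ones. Under 1 kb from a start lay 15.9% of WT DMSO only regions, 47.2% lay 1 to 10 kb away, 31.7% lay 10 to 50 kb away and 5.21% farther. The promoter share was 22.9% in WT DMSO regions with 1 other list, 41.7% with 2 and 68.6% in regions of all 4 lists, so it was higher the more lists held a region. Regions found in 1 of the other lists only had similar makeups to those of WT DMSO: promoters held 9.02% of WT talazoparib only regions (difference 0.714 points, -0.332 to 1.71), 12.3% of KO DMSO only regions (-2.54 points, -3.30 to -1.77) and 11.4% of KO talazoparib only regions (-1.69 points, -2.62 to -0.773).

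**Figure D2:**
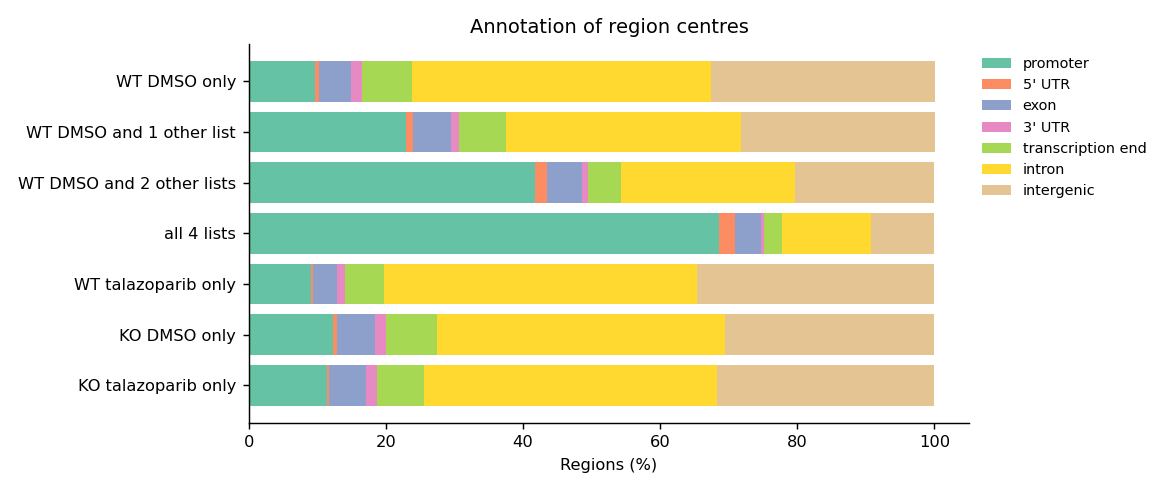
Annotation of region centres (% of regions) in WT DMSO only regions, in WT DMSO regions by the number of lists that hold them, and in regions of each other list alone. WT DMSO only regions have a promoter share of 9.73%, near that of the other 3 single-list sets and far below the 44.1% of all shared regions.

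WT DMSO only regions were less GC-rich than shared ones, as were the regions of each other single list. Median GC content was 49.8% (order-statistic 95% interval 49.6 to 49.9) against 55.0% (54.8 to 55.2) in shared regions, and CpG dinucleotides numbered 1.40 against 3.42 per 100 bp. The ratio of observed to expected CpG, which is high in CpG islands and low in methylated DNA that has lost CpG over evolution, was 0.231 against 0.481, and 0.713 in regions of all 4 lists. The median soft-masked (repeat) share of the peak was 14.8% against 9.08%. The regions found only in WT talazoparib, KO DMSO or KO talazoparib had a median GC content of 48.4%, 50.2% and 50.2%, and 1.20, 1.57 and 1.59 CpG per 100 bp. In the lower deciles of tag count the gap to shared regions was much smaller. In the 6 lowest deciles, which held 10097 of the 10827 WT DMSO only regions, median GC content ran from 49.2% to 50.3% against 50.8% to 52.2%, and CpG per 100 bp from 1.20 to 1.47 against 1.60 to 2.03. It was lower in WT DMSO only regions in all 10 deciles for both measures. Outside promoters, too, the gap in base composition was narrower, with a GC content of 49.5% against 51.6% and 1.36 against 1.80 CpG per 100 bp. Within promoters it was wider: the 1054 WT DMSO only regions there had 53.8% GC and 2.20 CpG per 100 bp, and the 7538 shared ones had 59.9% and 6.48. These promoter classes were not matched for strength, with medians of 3.74 against 11.3 tags and 500 against 912 bp. The part of strength in this gap was not tested.

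**Figure D3:**
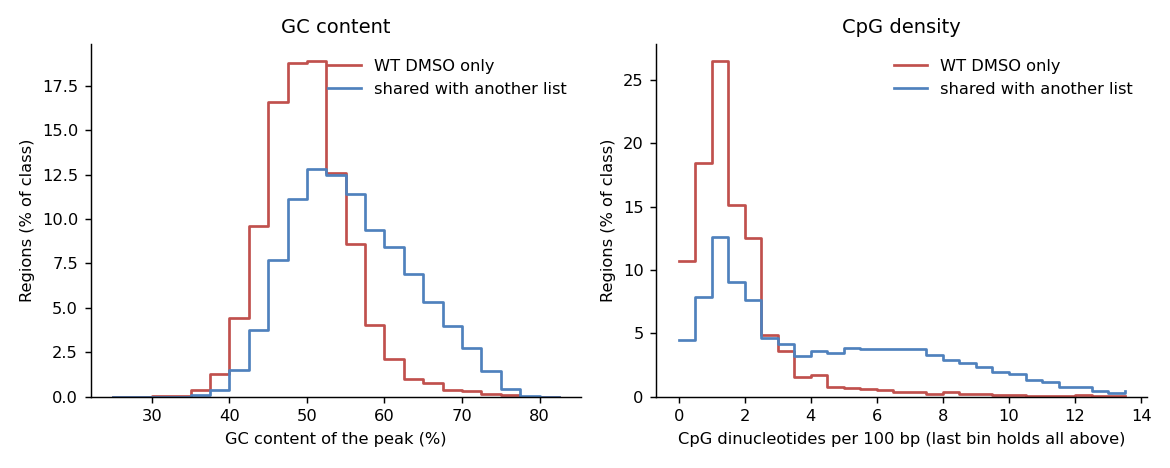
Distribution of GC content (%) and of CpG dinucleotides per 100 bp over peaks of WT DMSO only and shared regions (% of each class per bin). The WT DMSO only curves are centred on medians of 49.8% GC and 1.40 CpG; the shared curve for CpG has a long upper shoulder that the other lacks.

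Short sequence motifs were counted in the central 300 bp of each region on either strand. A match describes letters and is not a bound site, and the classes were not matched for tag count here. GGGCGG, the GC box, was in 10.9% of WT DMSO only and 41.6% of shared regions (-30.7 points, -31.6 to -29.7), and in 35.7% of the 32851 RefSeq promoter windows of the same length. A G-quadruplex pattern, 4 runs of at least 3 G set 1 to 7 bases apart, was in 8.02% against 19.7% (-11.7 points, -12.4 to -10.9; 18.6% of promoter windows). Both were lower on 19 of 19 chromosomes. Neither low share was particular to this set. GGGCGG was in 9.74% of WT talazoparib only, 14.2% of KO DMSO only and 14.9% of KO talazoparib only regions. The G-quadruplex pattern was in 7.74%, 9.79% and 11.6%, in the same order.

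Dinucleotide repeats went the other way. CACACACA was in 13.7% of WT DMSO only and 6.93% of shared regions (6.79 points, 6.05 to 7.55, higher on 19 of 19 chromosomes), and in 4.09% of promoter windows. Outside promoters the shares were 14.4% and 10.1%. The repeat was in 32.5% of WT talazoparib only regions, 7.03% of KO DMSO only and 10.2% of KO talazoparib only regions, so the WT DMSO only share lay between those of the other single-list sets. GAGAGAGA was in 5.43% against 3.93%. The AP-1 type motif TGANTCA was in 8.76% against 6.46% of all regions, and in 8.83% against 8.67% outside promoters. The telomere repeat unit TTAGGG was in 10.7% and 10.4%, with an interval of the difference of -0.388 to 1.09 points. CANNTG, the E-box, was in 81.5% against 70.0%, and CCGG in 33.6% against 63.1%. CANNTG was in 72.3% of promoter windows, CCGG in 52.8%, GAGAGAGA in 3.93%, TGANTCA in 7.81% and TTAGGG in 10.6%. The searches were not exclusive, and a region could hold several motifs that overlap.

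The nearest peak of any other list lay at a median of 4438 bp. It was within 1 kb for 19% of WT DMSO only regions (18.3 to 19.7), within 5 kb for 53.0% and within 50 kb for 93.5%. For a given list the shares were lower: within 1 kb lay a KO DMSO peak for 13.4%, a KO talazoparib peak for 7.55% and a WT talazoparib peak for 4.29%. By list, the median gap was 6633 bp to KO DMSO, 11048 bp to KO talazoparib and 18443 bp to WT talazoparib, the order of the lists' lengths. The shares within 1 kb in the other single-list sets were 18.4% for WT talazoparib, 16.6% for KO DMSO and 21% for KO talazoparib. WT DMSO only regions were themselves spread out, with a median of 25713 bp to the next one and 2.31% within 1 kb of it.

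**Figure D4:**
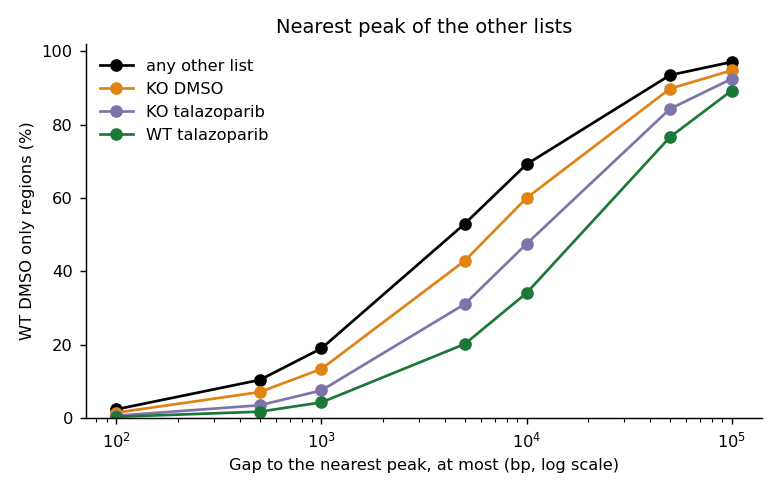
Share of WT DMSO only regions (%) whose nearest peak of each other list, or of any other list, lies within the gap on the horizontal axis (bp, log scale). The line for any other list passes 19% at 1 kb and 93.5% at 50 kb; the KO DMSO line is the highest of the 3 single lists and the WT talazoparib line the lowest.

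Regions lay close to the 1 bp limit on either side. Just inside it, a region in the 3' UTR of Bdh1 (6.84 tags) touched a KO talazoparib peak of 6.40 tags at 0 bp, a region in Tmem235 (3.51 tags) lay 1 bp from a WT talazoparib peak, and regions in Peg12 (2.93) and Sin3b (3.51) lay 1 bp from KO DMSO peaks. The tables do not state whether starts count from 0 or 1, and with starts counted from 1 the Bdh1 region would share 1 bp with its neighbour and not belong to the set. It was the only region at 0 bp. A region near Cactin (6.15 tags) lay 2 bp from a KO talazoparib peak of 18.9. Just outside it, regions in Tpd52 (3.33 tags), Coro1c (2.76) and Eps8l1 (7.36) overlapped a peak of another list by 1 bp, and regions in Ppp1cc (2.99) and Slc24a1 (3.39) by 2 bp. Of the shared regions, 330 (1.93%) overlapped by less than 100 bp.

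The 10 strongest WT DMSO only regions had folds of 4.29 to 5.37, close to the lowest listed fold, and 11.5 to 22.5 input tags. The strongest, with 27.4 normalised tags, lay at the start of Eif4a2, an RNA helicase of translation initiation (chr16:23107088-23108670). It held 238 IP tags (exact Poisson 95% interval 209 to 271) against 22.5 input tags, and the nearest peak of another list, in WT talazoparib, was 3822 bp away with 6.56 tags. Next came the intergenic region 82496 bp from the start of Sfi1 (chr11:3104609-3105109, 26.1 tags). Its input density, 2.99 times the genome mean, was the highest of the 10, and it was 78.0% soft-masked repeat. The region at the start of Cbr3, a carbonyl reductase (chr16:93682417-93684098), had 23.8 tags and a GC content of 59.5%.

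In an intron of Macrod1, which encodes an enzyme that removes ADP-ribose from proteins, a region of 2107 bp had 19.4 tags (chr19:7170641-7172748). The region in the 5' UTR of Rcor2, a corepressor that partners the demethylase LSD1 (chr19:7267815-7269366, 16.9 tags), lay 17 bp from a KO DMSO peak of 13.2 tags. The region 1865 bp from the start of Lama5, a laminin chain gene (chr2:180227341-180228108, 16.2 tags), lay 665 bp from a KO talazoparib peak of 31.0 tags. A promoter region at Arhgap39 and C030006K11Rik had 18.8 tags and an intron region of Rnf225 had 16.2. The regions at Rcor2 and near Lama5 thus had a peak of another list within 1 kb, while the one at Eif4a2 did not.

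Of the WT DMSO only regions, 519 were centred in a promoter of a protein-coding gene. Beside Eif4a2, Cbr3 and C030006K11Rik, the strongest were at Nr4a2, a nuclear receptor of dopaminergic neurons (14.6 tags, 10.5 CpG per 100 bp), at Plec, a cytoskeletal linker, in the body of Parp10, a mono-ADP-ribosyltransferase (14.1 tags), and at Tacc1, a centrosomal protein gene (13.9 tags). Lrrc24 (13.8), Necab3 (13.5), Myo19, a mitochondrial myosin (13.2), and Nr2c1, an orphan nuclear receptor (12.2), completed the 10. All 10 were CpG-dense, with 4.90 to 10.5 CpG per 100 bp. The median was 2.20 over all 1054 WT DMSO only regions in promoters of any transcript type. Those were weaker, with a median of 3.74 tags, so the 2 sets differ in strength and gene type. Gaps to the nearest peak of another list ran from 932 bp at Nr4a2 to 37753 bp at Nr2c1.

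A WT DMSO only region lay in the body or within 5 kb of 5787 of 20807 protein-coding genes (27.8%), and any WT DMSO region did so for 13109 (63.0%). Most of the 5787 genes, 4005, had 1 such region, and 1121 had 2. For 1558 genes, 26.9% of the 5787, the WT DMSO only regions were the only WT DMSO regions. Genes with such a region were long, with a median of 30.4 kb against 17.6 kb over all protein-coding genes. Their length was not compared with that of genes with any WT DMSO region, so whether it is particular to this set was not tested. Genes that also held a region of all 4 lists contained 18.1% of WT DMSO only regions (17.4 to 18.9) and 32.4% of shared ones. The shared figure is raised by construction, because regions of all 4 lists are among the shared ones and count themselves. In WT DMSO regions with 1 other list, where this cannot occur, the share was 16.3% (15.4 to 17.3). It was 18.5% in KO DMSO only, 17.9% in KO talazoparib only and 15.5% in WT talazoparib only regions.

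The genes with most WT DMSO only regions were long or dense in regions of every kind. Gm20388, with 80 of 185 WT DMSO regions, is annotated over 4435 kb and takes in 71 other protein-coding genes, and Fgfr2, with 18 of 52, is annotated over 2961 kb and takes in 29, so neither count belongs to 1 gene. Camta1, a calmodulin-binding transcription activator, had 10 of 17, and Msi2, an RNA-binding protein of stem cells, 10 of 18. At the shares of the tag deciles of their regions, the numbers would have been 73.7 in Gm20388, 18.6 in Fgfr2, 7.47 in Camta1 and 9.60 in Msi2. In Smyd3, a lysine methyltransferase gene of 566 kb, all 10 WT DMSO regions were WT DMSO only. The gene was not empty in the other lists: it held 2 regions of WT talazoparib, 6 of KO DMSO and 5 of KO talazoparib, at other positions. At the shares of their tag deciles, 6.49 of its 10 regions would have been WT DMSO only.

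Ctif, a cap-binding translation factor, had 9 of 15, Gse1 9 of 24, Zmynd8, a chromatin reader, 9 of 14 and Arhgef10l 8 of 20. Their tag deciles would give 7.12, 7.07, 7.71 and 9.72, so Arhgef10l was below that number, and Gse1 lies within the span of Gm20388. Rap1gap, which inactivates the small GTPase Rap1, was the densest of the 10 with 9 of 13 regions in 65.1 kb, or 13.8 per 100 kb, where its tag deciles would give 5.92. In Zmynd8 and Ctif, WT talazoparib had 1 region each, while KO DMSO had 18 and 9. Chosen after their values were seen, 6 more genes had at least 5 WT DMSO regions that were all WT DMSO only: Pitpnm2, Stk10 and Tpcn2 with 6 each, and Chst11, Rapgef2 and Rbfox1 with 5 each. Their tag deciles would give 2.47 to 4.28. Pitpnm2 held 7 KO DMSO regions and none of KO talazoparib, and Stk10 held 1 of each.

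Gene lists were described by the share of their WT DMSO regions, in the body or within 5 kb, that were WT DMSO only, beside the 38.8% over all WT DMSO regions and the share that their tag deciles would give. Polycomb-silenced developmental regulators, transcription factor genes kept off in stem cells, had 39 of 76 regions (51.3%, 40.3 to 62.2), against 38.1% at the shares of their tag deciles. Such regions lay at 29 of the 52 genes, and any WT DMSO region lay at 39. Over all protein-coding genes the corresponding shares were 27.8% and 63.0%. Both counts were above those shares, and how far the first follows from the second was not tested. Nkx2-2, a factor of ventral neural tube and pancreas, had 3 of 3 with up to 9.02 tags. Hand1 (7.18 tags at most), Lhx2 (6.61) and Pax6 (4.2), which pattern trophoblast and heart, forebrain, and eye, had 2 of 2 each. Irx3 had 2 of 3 (8.22 tags) and Lmx1b 3 of 7. In all 6 genes the strongest such region lay in an intron or, for Irx3, at the transcription end.

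**Figure D5:**
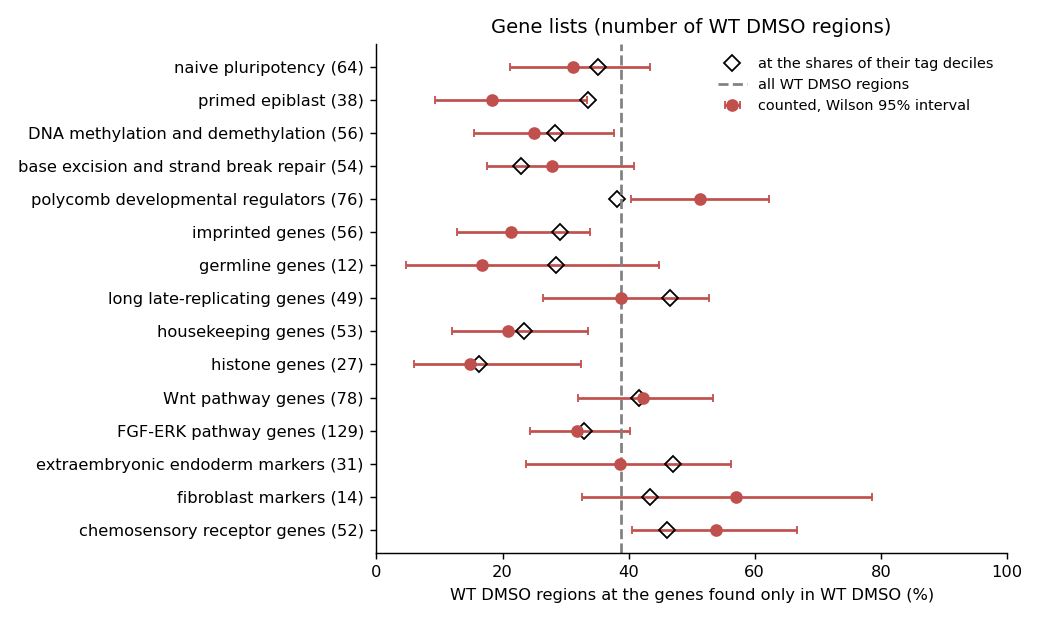
Share of the WT DMSO regions at the genes of each list that were found only in WT DMSO (%, circles with Wilson 95% intervals), with the share that the tag deciles of those regions would give (diamonds) and 38.8% over all WT DMSO regions (dashed). Polycomb developmental regulators have 51.3% against 38.1% at their deciles, and primed epiblast genes 18.4% against 33.5%.

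Genes of signalling pathways were near the share over all WT DMSO regions. The Wnt pathway had 33 of 78 regions (42.3%, 32.0 to 53.4; 41.7% at the tag deciles). Its transcription factor gene Tcf7l2 had 5 of 7, the ligand genes Wnt5b 4 of 6 and Wnt3a 3 of 4, and the receptor gene Lrp6 2 of 3. Notum, which encodes an enzyme that inactivates Wnt ligands, had 2 of 2, one of them in a promoter with 7.99 tags, and the kinase gene Gsk3b had 2 of 5. The FGF-ERK pathway had 41 of 129 (31.8%, 24.4 to 40.2; 32.9% at the tag deciles), of which Fgfr2 with its long annotation gave 18 of 53; without it, 23 of 76 (30.3%). Spred2, an inhibitor of ERK signalling, had 5 of 8, the receptor genes Fgfr3 2 of 3, Fgfr4 2 of 5 and Fgfr1 2 of 6, and the kinase gene Map2k1 2 of 4.

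Naive pluripotency genes had 20 of 64 regions WT DMSO only (31.2%, 21.2 to 43.4), where their tag deciles would give 35.2%. Such regions lay at 13 of 26 genes (50.0%), against 27.8% of all protein-coding genes. Any WT DMSO region lay at 25 of the 26 (96.2%), against 63.0% of all protein-coding genes. Esrrb, a nuclear receptor of the naive network, had 3 of 11, Fbxo15 3 of 4, Dppa2 2 of 2, Sall4 2 of 4, Tfcp2l1 2 of 3 and Fgf4 1 of 3. Primed epiblast genes had 7 of 38 (18.4%, 9.22 to 33.4), with 2 of 5 at Dnmt3a and 1 each at Lef1, Nodal, Cdh2, Etv5 and Lefty2. Their tag deciles would give 33.5%, just above that interval.

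Genes of DNA methylation and demethylation had 14 of 56 (25%, 15.5 to 37.7), near the 28.3% at their tag deciles. Tet1, which oxidises 5-methylcytosine and so makes substrates of TDG, had 4 of 6 with up to 6.61 tags in an intron, and Tet2 had 2 of 4. The de novo methyltransferase gene Dnmt3a had 2 of 5, and Ctcf, Zfp57, which guards imprints, and Gadd45b had 1 each. Base excision and strand break repair genes had 15 of 54 (27.8%, 17.6 to 40.9), below 38.8% and above the 22.9% at their tag deciles, with both inside the interval. Among them Pold1, the catalytic subunit of DNA polymerase delta, had 2 of 5 (9.25 tags at most), the glycosylase genes Nthl1 and Ung 2 of 3 and 1 of 4, and Xrcc1, the scaffold of strand break repair, 2 of 2. Tdp1, which clears blocked 3' ends, and Parg, which degrades poly(ADP-ribose), had 1 of 2 each.

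Of the other lists, imprinted genes had 12 of 56 (21.4%, 12.7 to 33.8; 29.1% at the tag deciles), with Kcnq1 and Kcnq1ot1, which overlap, sharing a region of 4.48 tags and H13 holding 2 of 4. Blcap, Plagl1 and Inpp5f had 1 each. Housekeeping genes had 11 of 53 (20.8%, 12.0 to 33.5; 23.4% at the tag deciles), 2 of 5 at Actb and 2 of 2 at Gusb. Histone genes had 4 of 27 (14.8%, 5.92 to 32.5; 16.3% at the tag deciles), shared among neighbouring genes of the Hist1 cluster. Very long late-replicating genes had 19 of 49 (38.8%, 26.4 to 52.8; 46.5% at the tag deciles), with 4 of 6 at Cdh13 and 3 of 5 at both Sox5 and Auts2. Germline genes had 2 of 12 (16.7%, 4.70 to 44.8; 28.4% at the tag deciles), at Hormad2 and Tex101.

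Lists of genes that mark other cell types were included as a reference, and break positions do not show whether a gene is expressed. Extraembryonic endoderm markers had 12 of 31 (38.7%, 23.7 to 56.2, with 47.0% at the tag deciles). Sparc had 4 of 10, Pdgfra 2 of 2, Col4a2 2 of 3, and Hnf4a and Gata4 1 of 3 each. Col4a1 had 1 of 1, a region also counted at Col4a2. Fibroblast markers had 8 of 14 (57.1%, 32.6 to 78.6, with 43.4% at the tag deciles). Vim had 1 of 1, in a promoter with 11.7 tags, and Pdgfrb 2 of 2. Col1a1 had 2 of 3, Fn1 1 of 4, and Lox and Loxl1 1 of 1 each. Chemosensory receptor genes, known for their expression in sensory neurons, had 28 of 52 (53.8%, 40.5 to 66.7), with 46.1% at their tag deciles. Of 1956 such genes, 29 had a WT DMSO only region and 49 had any WT DMSO region. Over all protein-coding genes the corresponding shares were 27.8% and 63.0%. WT DMSO regions of any kind were thus rare at these genes, and the low count was not particular to WT DMSO only regions. Of the 15 intervals, 7 left out the 38.8% over all WT DMSO regions, and 2, those of Polycomb regulators and primed epiblast genes, left out the share at the list's tag deciles.

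By chromosome, WT DMSO only regions made up 34.4% to 41.4% of WT DMSO regions on all chromosomes but 16, where they were 475 of 1036 (45.8%, 42.8 to 48.9). The tag deciles of those regions would give 39.9%. The chromosome's WT DMSO regions were found in KO DMSO in 45.5% of cases and in KO talazoparib in 33.2%, the lowest shares of the 19 chromosomes, which otherwise ran from 49.3% to 55.1% and from 36.5% to 46.1%. In WT talazoparib the share was 26.9%, against 26.4% to 32.9% elsewhere. In windows of 10 Mb the share of WT DMSO only regions was 53.7% at the start of the chromosome and 50.7% at its end, and 36.7% to 45.8% in the 7 others with a value. The intervals of both end windows included the 45.8% of the whole chromosome. Shares above 50.7% also occurred in windows of other chromosomes, among them 3 and 8, so such values were not particular to chromosome 16. Chromosome 16 thus had the lowest share in both KO lists and the second lowest in WT talazoparib. The number of copies of the chromosome in each line, which would bear on these shares, was not tested. The regions at Eif4a2 and Cbr3, the strongest in promoters, were on this chromosome.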

How the data were processed

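SSB-seq was run on 16 libraries, 3 IP and 1 input in each of 4 conditions. The submitters' processing notes list HOMER 4.11, Bowtie2 2.3.4.2, R 3.6, Picard 2.9.2 and build mm10, and give no settings. Per the file headers, the 4 deposited tables have HOMER findPeaks columns, with 1 value per peak and condition, so the authors pooled the libraries. The deposited normalized tag count is a signal, IP tags per 10 M, and the deposited input tags are a signal in steps of 0.5. A further deposited column (other) holds IP tags scaled to the input total. The deposited fold is that scaled value over the input tags (a ratio), the deposited p-value is the authors' test of it, and the deposited score comes from HOMER.

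From these tables, peaks on chromosomes 1 to 19 were merged at 1 bp of overlap. A shared region was measured at its WT DMSO peak with the highest normalized tag count. IP totals were estimated from low normalized tag counts (under 6), which fell on the 0.5-tag step within 0.0051 in 100% of cases in each list. Density is relative to the mean over 2648 Mb. Region centres were assigned by GENCODE M21 (GRCm38), whose chromosome lengths matched, in the order promoter, transcription end, 5' UTR, 3' UTR, exon, intron, intergenic. Shares have Wilson, differences Newcombe, medians order-statistic and tags exact Poisson 95% intervals. All p-values in the tables are the authors' and none was computed. The merge, gaps and intervals were tested on simulated data. The share at tag deciles gives each region the WT DMSO only share of its decile of normalized tag count, a standardisation added after seeing the data. Python 3.11.15, numpy 2.4.6, pandas 2.3.3 and scipy 1.17.1 were used.

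The regions, the gene lists and the motifs were chosen with earlier results of these data known. Named were the 10 strongest regions, the 10 strongest protein-coding promoter regions, the 10 protein-coding genes with most regions in the body, up to 6 genes with most regions in each list, and the 5 regions on either side of the overlap limit. Some of the strongest regions and their sequences are not reported here. Alternatives changed the merge distance, the overlap, the fold and input minimums, the number of peaks per list, the chromosomes, the promoter definition and the matching of shared regions.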

Additional observations from a re-analysis of the deposited data

How the results depend on the processing

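The direction of the promoter and intergenic differences was the same, with an interval that left out 0, under each of the 12 other settings tried, of which leaving out chromosome 16 was chosen after seeing the data. The promoter difference ran from -39.7 to -9.56 points and the intergenic difference from 2.26 to 16.4, with the smallest values where shared regions were matched by length and tag count. The number of WT DMSO only regions stayed within 1.5 times of 10827 when peaks up to 500 or 1000 bp apart were merged, when an overlap of 50% of the peak was asked for, with chromosome X and without chromosome 16. It was 4704 at a fold of at least 6, 6837 at 3 or more input tags, 4341 with the 15343 best-scoring peaks of each list and 2525 at or above the median score. In the same order, median GC content was 50.6%, 50.4%, 50.8% and 50.7%, CpG per 100 bp 1.59, 1.5, 1.60 and 1.58, the share within 1 kb of another list's peak 10.8%, 11.4%, 14.1% and 24.8%, and the share in genes with a region of all 4 lists 1.30%, 10.8%, 9.72% and 16.2%. The last share falls by construction where fewer peaks leave fewer regions of all 4 lists. The median score, taken over WT DMSO peaks, was asked of the WT DMSO only regions alone. Shared regions and the other lists were left unfiltered there, so the 2525 is low by construction. The share within 1 kb was 9.53% with merging at 500 bp and 30.2% with the 50% overlap, and has no value with merging at 1000 bp, which removes such regions by construction. Median GC content was 49.6% with merging at 1000 bp and 50.0% with the 50% overlap, and the share in genes with a region of all 4 lists was 19% with merging at 1000 bp. No paired analysis was possible because the deposited tables pool the libraries of a condition, and for the same reason leaving out a replicate was not run. Of the WT DMSO only regions, 55.3% had fewer than 3 input tags, which limits the precision of their folds.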
